A study of Caenorhabditis elegans with 10 samples.

Results

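The hedgehog-related and patched-related genes of Caenorhabditis elegans were examined for binding by the heterochromatin proteins HPL-1 and HPL-2. Members were the protein-coding genes of the WBcel235 annotation named wrt, grd, grl, ptr or ptc with a number, together with hog-1 and qua-1. There were 85 of them among 19971 protein-coding genes on the 6 chromosomes. A member was scored as bound when a peak overlapped its gene body by 1 bp or more. The naming rule used no binding value, but the families were chosen with earlier results of these data known. Of the 85, 59 are hedgehog-related (10 wrt, 16 grd, 31 grl, hog-1 and qua-1) and 26 are patched-related (24 ptr and 2 ptc).

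Hedgehog proteins are secreted signals that in flies and vertebrates are cut by their own carboxy-terminal Hog domain, and Patched is the sterol-sensing membrane protein that receives them. The worm has no direct hedgehog orthologue, and no Smoothened gene is known in it. It carries instead families of secreted proteins with their own amino-terminal domains, named warthog (wrt), ground (grd), ground-like (grl), quahog (qua-1) and hog (hog-1), and a large family of patched-related membrane proteins (ptr) beside the Patched homologues ptc-1 and ptc-3. Many of these genes are expressed in epidermal cells, and several act in molting and cuticle formation.

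Binding was measured by DamID, in which a protein is fused to the bacterial adenine methyltransferase Dam and marks GATC sites near the places it visits. The fusions, in L4 larvae grown for 48 h at 20 °C, were HPL-1::Dam in intestine (strain MRS579), HPL-2::Dam in intestine (MRS580) and HPL-2::Dam in hypodermis (MRS578). Their controls were GFP::Dam in intestine (BN1051) and GFP::Dam in hypodermis (BN561). Each of these 5 groups has 2 libraries in the labels. HPL-1 and HPL-2 are the worm proteins of the heterochromatin protein 1 family, which bind histone H3 methylated at lysine 9, and the hypodermis is the epidermis that secretes the cuticle. The labels used here do not name the promoters that drive the fusions. Peak lists hold no transcript levels, so the tissue labels were not checked against marker genes.

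The data are 1 list of peaks for each HPL fusion and tissue, averaged over libraries by the authors and set against GFP::Dam, so no value below has an error between replicates and none was tested. The lists held 1346 peaks (HPL-1 intestine), 1665 peaks (HPL-2 intestine) and 1572 peaks (HPL-2 hypodermis). Read depth per library is not known from them. Each peak carries the authors' score, whose scale is not stated, and a false discovery rate (FDR). Scores were compared only within a list, where rank 1 is the highest score. Both intestine lists rest on the same GFP::Dam group, so their values stand side by side below and were not taken as independent of each other.

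HPL-1 in intestine lay over 12 of the 85 members (14.1%), against 4.84% of all protein-coding genes. HPL-2 in intestine lay over 13 members (15.3%), against 6.11% of all genes. HPL-2 in hypodermis lay over 5 members (5.88%), a share near the 5.92% of all genes. At least 1 of the 3 lists covered 21 members (24.7%), against 12.4% of all genes, and 64 members had no peak. Scaled to length, peaks took 3.11% of the members' gene-body sequence in HPL-1 intestine, 4.11% in HPL-2 intestine and 1.78% in HPL-2 hypodermis. Over all protein-coding genes these shares were 0.994%, 1.69% and 1.89%, summed gene by gene.

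The counts by subfamily were small and are given list by list. Of all protein-coding genes, 4.84% were bound by HPL-1 in intestine, 6.11% by HPL-2 in intestine and 5.92% by HPL-2 in hypodermis. Of 10 wrt genes, 3 were bound by HPL-1 in intestine (30.0%), 1 by HPL-2 in intestine (10.0%) and 0 by HPL-2 in hypodermis. Of 16 grd genes, 3 (18.8%), 4 (25.0%) and 2 (12.5%) were bound in the same lists. Of the 10 grd genes under 2 kb, 1 was bound in each intestine list (10.0%, against 3.04% and 3.62% of all genes of that length). Of the 2 grd genes over 5 kb, 1 was bound by HPL-1 in intestine, 2 by HPL-2 in intestine and 1 by HPL-2 in hypodermis. Of 31 grl genes, 1 (3.23%), 4 (12.9%) and 0 were bound. These are short genes, and of the 23 grl genes under 2 kb, 1 was bound by HPL-1 (4.35%, against 3.04% of all genes of that length) and 2 by HPL-2 in intestine (8.70%, against 3.62%). Of 24 ptr genes, 3 (12.5%), 2 (8.33%) and 3 (12.5%) were bound. The small groups were ptc, with 1, 2 and 0 of 2 genes bound, qua-1, bound by HPL-1 in intestine, and hog-1, bound in none of the 3 lists. With so few genes in each subfamily, 1 gene moves a share by several percentage points. At an FDR of 0.01 or below, ptr in HPL-1 intestine fell to 1 gene, and the only grl gene in HPL-1 intestine and the only wrt gene in HPL-2 intestine were lost.

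**Figure D1:**
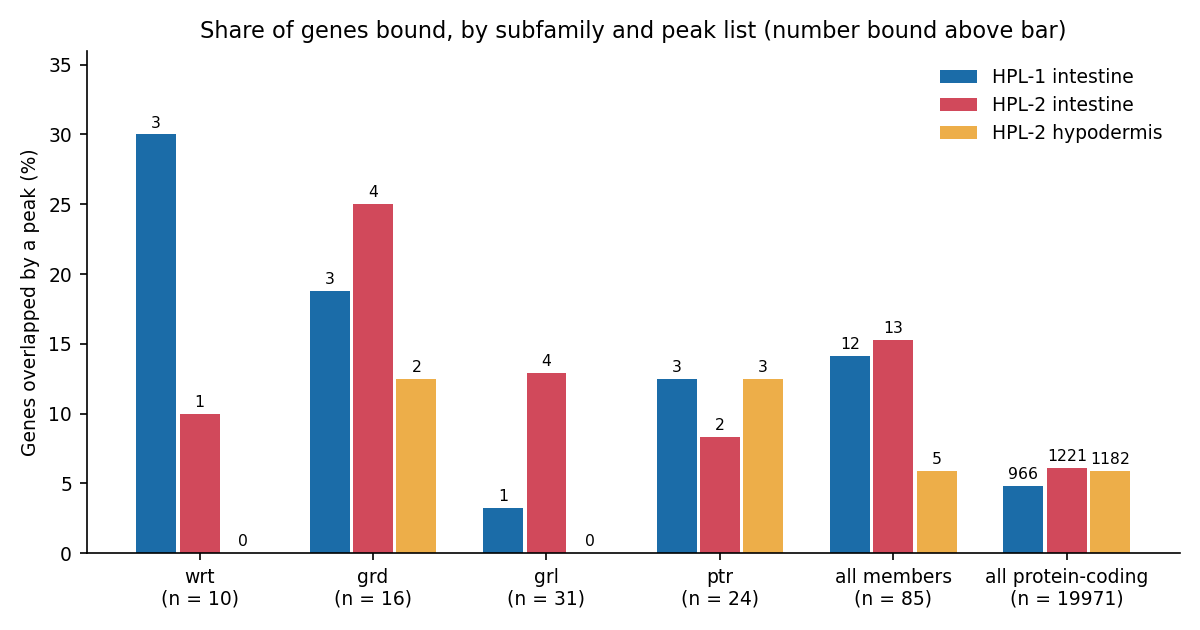
Share of genes overlapped by a peak (%, vertical axis) for the 4 larger subfamilies, all 85 members and all 19971 protein-coding genes, with 1 bar per peak list and the number of bound genes above each bar. The wrt bar of HPL-1 intestine reaches 30.0% and the grd bar of HPL-2 intestine 25.0%, while wrt and grl have no gene bound in HPL-2 hypodermis.

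The ground genes, which encode secreted proteins with a ground domain, held grd-2, the member with the highest ranking peak in 2 of the 3 lists. It lies on chromosome V from 20609794 to 20613929 (4136 bp) and carried a peak in each list. The HPL-1 intestine peak (20611855 to 20613410) scored 1.11 and ranked 65 of 1346, the highest of the 15 HPL-1 peaks over members, with an FDR of 2.1e-05. The HPL-2 intestine peak (20612180 to 20613114) scored 0.83 and ranked 1108 of 1665, with an FDR of 0.0123. In hypodermis the HPL-2 peak (20611753 to 20613778) scored 2.09 and ranked 273 of 1572, the highest of the 5 hypodermis peaks over members, with an FDR of 2.1e-07. The hypodermis peak spanned 100% of the HPL-1 intestine peak (1556 bp) and 100% of the HPL-2 intestine peak (935 bp), so grd-2 was covered at the same place in both tissues. Peaks took 37.6% of its body in HPL-1 intestine, 22.6% in HPL-2 intestine and 49.0% in HPL-2 hypodermis.

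A second ground gene on the right end of chromosome V, grd-11 (20356772 to 20365773, 9002 bp), also had peaks in each list but at different places. HPL-1 in intestine had a peak of score 0.98 (20359710 to 20360928, rank 134, FDR 0.000105) and a small one of 215 bp and score 0.52 beside it. HPL-2 in intestine had a peak of score 1.34 (20359987 to 20361147, rank 278, FDR 2.3e-06). Both intestine fusions thus lay in the lower-coordinate part of the gene body. The hypodermis peak (20365577 to 20367109, score 1.38, rank 1286, FDR 0.0352) touched only the last 197 bp of grd-11 and ran into the neighbouring gene K02E2.8. It lay 4429 bp from the HPL-2 intestine peak, so grd-11 counts as bound in hypodermis by its edge.

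The remaining bound ground genes each had 1 peak in 1 list. On the X chromosome, grd-1 (11109440 to 11115887) had an HPL-2 intestine peak of 1086 bp inside the gene, with a score of 1.4 and rank 228 (FDR 0.000764). On chromosome IV, grd-13, grd-3 and grd-10 stand next to each other with gaps of 163 and 601 bp. HPL-1 in intestine covered 48 bp at the edge of grd-13 (3438312 to 3439507) with a peak that lay mostly outside it, over srz-32 as well (3437823 to 3438359, score 0.87, FDR 0.0213). HPL-2 in intestine covered 78.0% of the adjacent grd-3 (3439671 to 3440453) with a peak of score 0.86 (3439657 to 3440281, FDR 0.00163). That peak came within 150 bp of grd-13 and 774 bp of grd-10 without touching either. The other 11 ground genes, grd-10 among them, had no peak.

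The ground-like genes, short secreted-protein genes with a median body of 1301 bp, were reached mainly by HPL-2 in intestine. The peak over grl-16 (chromosome I, 572173 to 575120) was the highest scoring of the 16 HPL-2 intestine peaks over members, with a score of 1.98 and rank 26 of 1665. It ran from 573257 to 575350, covered 63.2% of the gene and had an FDR of 2.7e-06. The nearest HPL-1 intestine peak was 1622 bp from grl-16 and the nearest hypodermis peak 16964 bp. On chromosome V, grl-27 (3575055 to 3575859) lay wholly under an HPL-2 intestine peak (3574796 to 3575864, score 0.78, FDR 0.00321). It was the only member covered over 100% of its body in any of the 3 lists. The nearby run of grl-28, grl-29, grl-30 and grl-31, which starts at 3551346, had no peak in any list.

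The other bound ground-like genes, grl-25 and grl-5, had peaks ranked well below that of grl-16, as did grl-27 at rank 1229. On chromosome III, grl-25 (8962293 to 8965707) had 2 HPL-2 intestine peaks, of 592 bp (score 0.62, rank 1602) and 334 bp (score 0.82, rank 1127). On chromosome V, grl-5 (4412748 to 4414663) had an HPL-1 intestine peak of 432 bp (score 0.51, rank 1177, FDR 0.0367) and an HPL-2 intestine peak of 587 bp (score 0.78, rank 1229, FDR 0.00321). These start at the same base, 4412807, in lists that share their GFP::Dam control group. The other 27 ground-like genes had no peak. In hypodermis the nearest HPL-2 peak to any ground-like gene was 2217 bp away, and the median distance was 60.9 kb.

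The warthog genes, whose proteins carry a wart domain, joined in some members to a Hog domain, were bound mainly by HPL-1 in intestine and by peaks of low to middle rank. The lowest FDR values were those of wrt-2 and wrt-6, both on the X chromosome. The peak at wrt-2 (3092395 to 3094349) scored 0.57 at rank 964 with an FDR of 0.000205, and reached 378 bp past the end of the gene. The peak in wrt-6 (3480250 to 3483666) scored 0.6 at rank 878 with an FDR of 0.000871, and lay wholly within the gene. On chromosome II, wrt-1 (7531156 to 7533246) had 2 HPL-1 peaks of score 0.49 and 0.47, at ranks 1226 and 1276 and with an FDR of 0.0367 each. The first also touched ZK1290.5, and the second came within 943 bp of wrt-10, which starts 15 bp after wrt-1 ends and had no peak of its own. HPL-2 in intestine reached only wrt-9 (X, 1576637 to 1591316), the longest member at 14680 bp, with a peak of 489 bp (score 1.04, rank 660, FDR 0.022). No warthog gene had an HPL-2 hypodermis peak, and the nearest was 5745 bp from wrt-9.

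The quahog gene qua-1 (chromosome II, 8198803 to 8204004), which is needed for normal molting, had an HPL-1 intestine peak of 596 bp within its body. The peak scored 0.7 at rank 567 with an FDR of 0.000105. The nearest HPL-2 peaks were 83.1 kb away in intestine and 17.9 kb away in hypodermis. For hog-1 on the X chromosome the nearest peaks were 14.5 kb (HPL-1 intestine), 17.5 kb (HPL-2 intestine) and 371 kb (HPL-2 hypodermis) away.

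**Figure D2:**
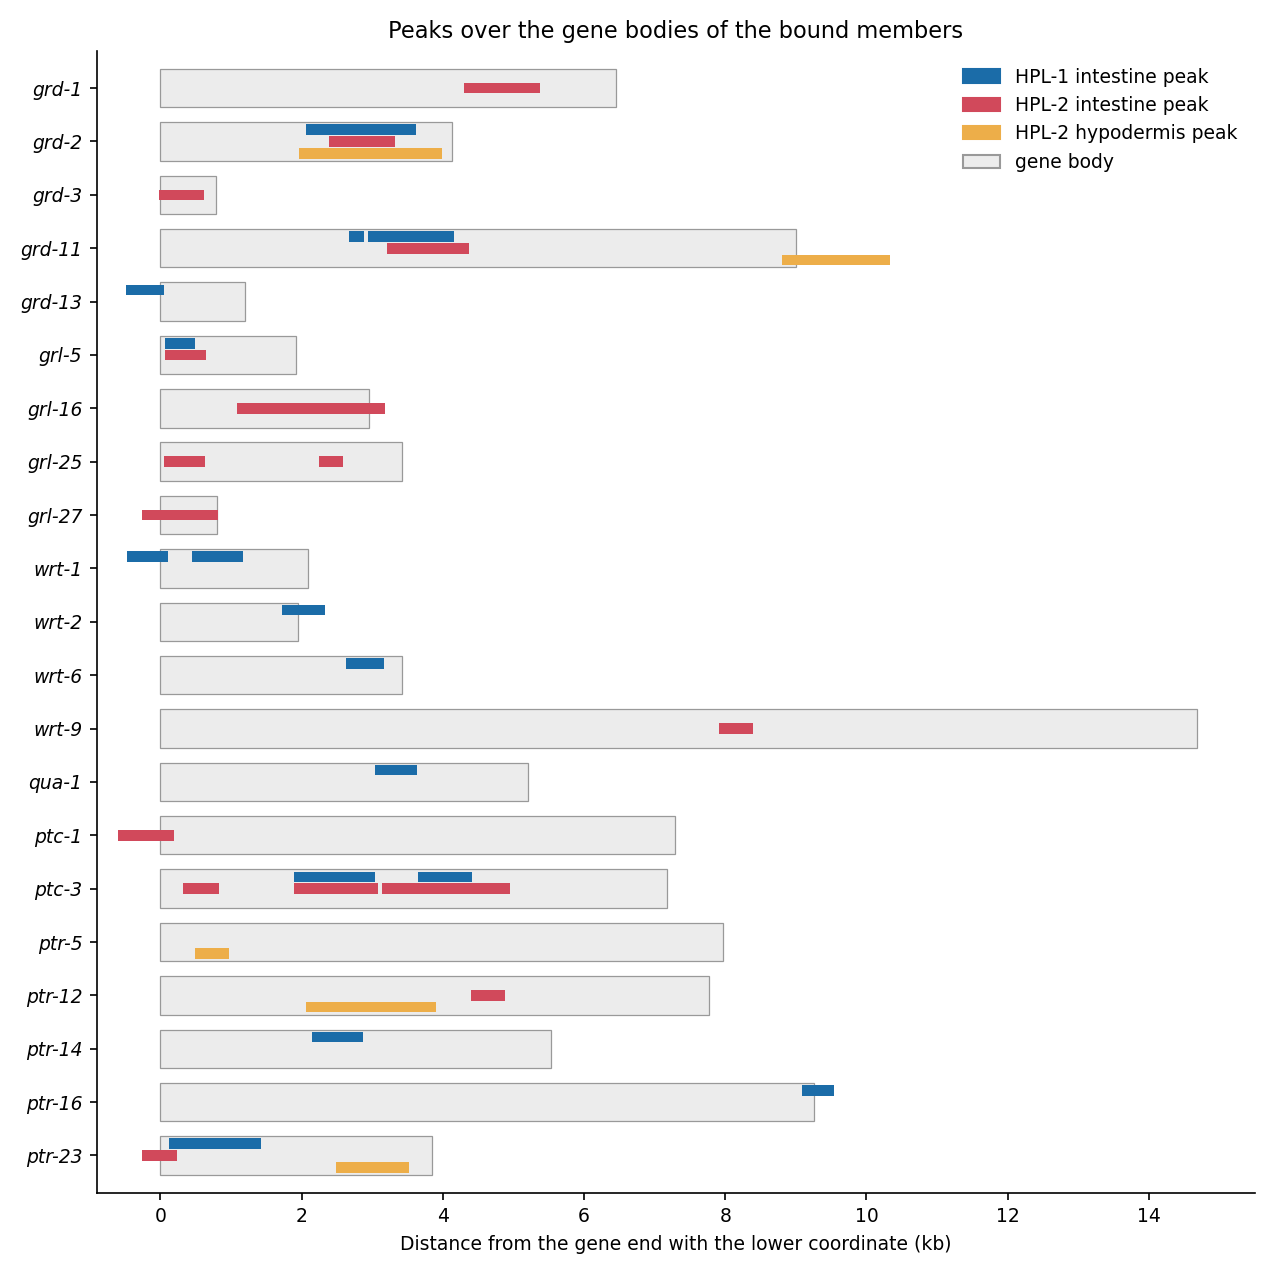
Peaks drawn over the gene bodies of the 21 bound members, in kb from the gene end with the lower coordinate (horizontal axis), with 1 row per gene and 1 colour per peak list, and with transcription direction not shown. In grd-2 the 3 peaks lie over the same stretch, whereas the hypodermis peaks of grd-11, ptr-12 and ptr-23 lie apart from the intestine peaks.

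The Patched homologue ptc-3 (chromosome II, 2845412 to 2852593, 7182 bp), an essential gene in larval growth and molting, had the most sequence under peaks of any member in a single list. HPL-2 in intestine had 3 peaks over it, which took 48.9% of its body. The widest (2848547 to 2850366, 1820 bp) scored 1.05 at rank 644 and had an FDR of 5.5e-12, the lowest of any peak over a member. The others scored 1.04 (500 bp, FDR 0.0123) and 0.72 (1190 bp, FDR 2.5e-05). HPL-1 in intestine had 2 peaks there, of score 0.52 (1150 bp, FDR 0.00574) and 0.53 (760 bp, FDR 0.0213), which took 26.6% of the body. The hypodermis list had no peak within 18042 bp of ptc-3. The other homologue, ptc-1 (chromosome II, 7893222 to 7900515), which acts in germline cytokinesis, was touched over 196 bp at its edge by an HPL-2 intestine peak (score 0.98, FDR 0.022) that lay mostly outside the gene.

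Among the patched-related ptr genes, which encode membrane proteins with a sterol-sensing domain, ptr-23 and ptr-12 were reached in more than 1 list. The protein PTR-23 is known from its role in the osmotic stress response. Over ptr-23 (chromosome I, 14909240 to 14913083) the HPL-1 intestine peak (14909356 to 14910667) scored 0.77 at rank 399 with an FDR of 0.000205. The HPL-2 intestine peak (14908972 to 14909475) scored 1.22 at rank 399 with an FDR of 0.00497, and covered 236 bp of the gene. The hypodermis peak (14911722 to 14912756) scored 1.37 at rank 1307 with an FDR of 0.0236, and lay 1054 bp beyond the HPL-1 peak, toward the other end of the gene.

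Over ptr-12 (chromosome I, 2587527 to 2595294) HPL-2 was present in both tissues, with an intestine peak of 482 bp and a hypodermis peak of 1842 bp that were 494 bp apart. The intestine peak (score 1.17, rank 452, FDR 0.000124) took 6.20% of the gene. The hypodermis peak (score 2.0, rank 344, FDR 2.3e-05) took 23.7%. Only HPL-2 in hypodermis reached ptr-5 (X, 17318584 to 17326558), with a peak of 478 bp, a score of 1.93 and rank 409 (FDR 0.00107). It was the only member bound in hypodermis without a peak in either intestine list, the nearest of which were 42694 bp (HPL-1) and 34928 bp (HPL-2) away. The HPL-1 intestine peaks over ptr-14 (IV, 10615427 to 10620964, score 0.5, FDR 0.0367) and at the edge of ptr-16 (V, 1165711 to 1174969, score 0.56, FDR 0.0213) ranked 1208 and 1001. The other 19 ptr genes had no peak in any list.

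Within their own lists, the median score of peaks over members was below that of peaks over all protein-coding genes for HPL-1 and above it for HPL-2 in both tissues. The 15 HPL-1 intestine peaks reached a median of 0.56, against 0.66 for all 1010 HPL-1 peaks over protein-coding genes, and 7 of the 15 (46.7%) had an FDR of 0.01 or below, against 53.7% of those 1010. For the 16 HPL-2 intestine peaks the median was 1.01, against 0.95 for 1367 peaks, and 12 of the 16 (75.0%) had such an FDR, against 66.3%. For the 5 hypodermis peaks it was 1.93, against 1.65 for 1210 peaks, and 3 of the 5 (60.0%) had such an FDR, against 60.7%. Their median widths were 616, 713 and 1533 bp, against 608.5, 682 and 964.5 bp for the peaks over all protein-coding genes. Of the 36 overlaps between a peak and a member, 26 lay wholly inside the gene body, and 3 involved a peak that also touched another protein-coding gene.

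**Figure D3:**
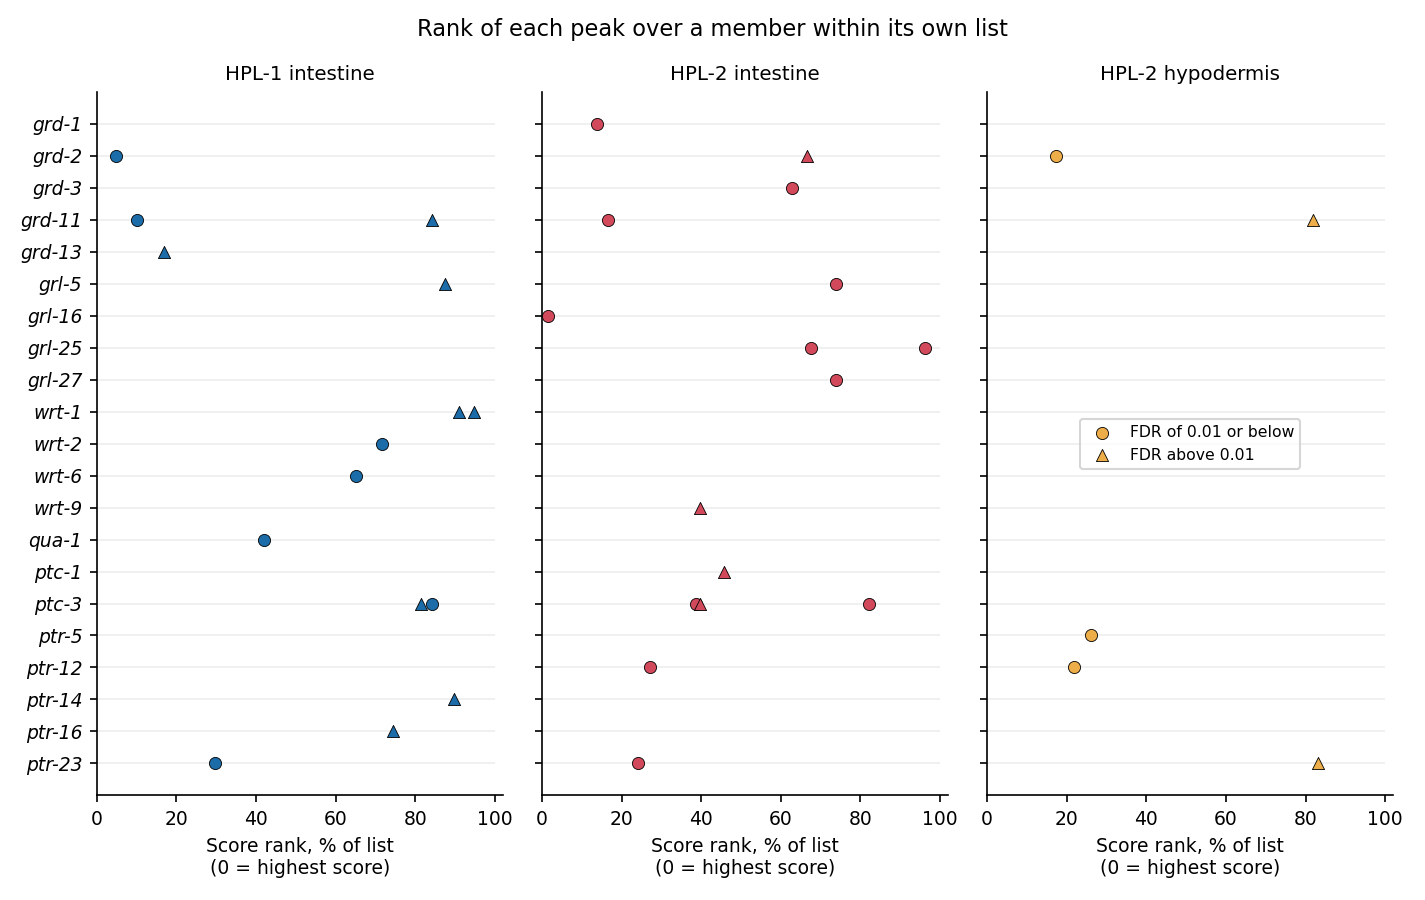
Score rank of every peak over a member as a percentage of its own list (horizontal axis, 0 is the highest score), with 1 panel per list, 1 row per gene, circles for an FDR of 0.01 or below and triangles above it. In HPL-1 intestine grd-2 and grd-11 have peaks at ranks 65 and 134 of 1346 and most wrt, ptc and ptr peaks lie in the lower ranks, and in HPL-2 intestine grl-16 ranks 26 of 1665.

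With the stricter limit of an FDR of 0.01, 7 members were left in HPL-1 intestine (8.24%), against 2.75% of all genes. They were grd-2, grd-11, wrt-2, wrt-6, qua-1, ptc-3 and ptr-23. In HPL-2 intestine 10 were left (11.8%, against 4.29% of all genes), without grd-2, wrt-9 and ptc-1. In hypodermis 3 were left (3.53%, against 3.79%), namely grd-2, ptr-12 and ptr-5.

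Gene length moved with binding. The rule of 1 bp or more of overlap favours longer bodies by construction. Over all protein-coding genes, bound genes had a median body of 3338 bp in HPL-1 intestine, 3617 bp in HPL-2 intestine and 3163.5 bp in HPL-2 hypodermis, against 1972, 1955 and 1964 bp for unbound genes. The members had a median body of 2726 bp, against 2006 bp for all protein-coding genes, and subfamily medians ran from 1301 bp (grl) and 1771 bp (grd) through 2640 bp (wrt) to 5715.5 bp (ptr) and 7238 bp (ptc). Among bodies over 5 kb, HPL-1 in intestine lay over 5 of 23 members (21.7%), against 11.1% of all such genes. HPL-2 in intestine lay over 6 of these 23 (26.1%), against 15.9%, and HPL-2 in hypodermis over 3 (13.0%), against 13.3%. For bodies of 2 to 5 kb the shares were 4 of 26 members (15.4%) in each intestine list, against 4.56% for HPL-1 and 5.24% for HPL-2. Under 2 kb they were 3 of 36 members (8.33%) in each intestine list, against 3.04% and 3.62%. In hypodermis, 2 of 26 members of 2 to 5 kb were bound (7.69%, against 5.54%) and 0 of 36 under 2 kb (against 3.84%). In all 3 classes, both intestine lists held a higher share of members than of all genes. The class over 5 kb has no upper limit, and length is matched there only in part. The longest member has 14680 bp and the longest protein-coding gene 102695 bp.

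For the long ptr genes the shares were near those of all long genes, or lower, and rest on few bound genes. The longest ptr gene has 12615 bp, so the much longer genes in that class have no counterpart among them. Of the 16 ptr genes over 5 kb, 2 were bound by HPL-1 in intestine (12.5%), 1 by HPL-2 in intestine (6.25%) and 2 by HPL-2 in hypodermis (12.5%), against 11.1%, 15.9% and 13.3% of all such genes. Peaks took 1.36%, 0.444% and 2.07% of the summed ptr bodies in the same order, against 0.994%, 1.69% and 1.89% over all genes. The corresponding HPL-2 intestine shares were 9.11% for grd and 8.50% for grl, and the HPL-1 shares 7.29% for grd and 4.06% for wrt. In intestine, the covered share was thus above that of all genes for grd and ptc in both lists, for grl in HPL-2 and for wrt, qua-1 and ptr in HPL-1. It was below that of all genes for ptr, wrt and qua-1 in HPL-2, for grl in HPL-1 and for hog-1 in both lists.

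**Figure D4:**
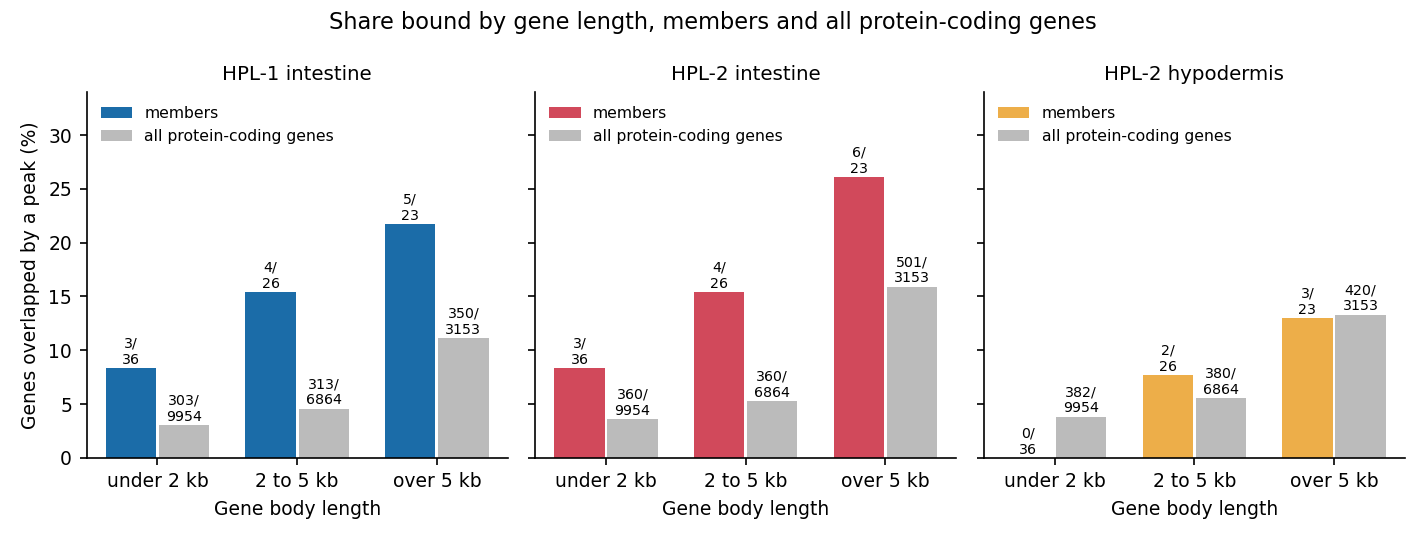
Share of genes overlapped by a peak (%, vertical axis) in 3 classes of gene body length, with members in colour beside all protein-coding genes in grey, 1 panel per list, and the number bound over the number of genes above each bar. The members' bar is above the grey one in every class of both intestine lists, and in HPL-2 hypodermis it is 13.0% beside 13.3% for bodies over 5 kb.

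Members lay on all 6 chromosomes, with 32 of 85 (37.6%) on V, against 25.0% of all protein-coding genes. The outer parts of chromosomes, the first and last of 3 equal parts, held 63.5% of all members and 62.2% of all protein-coding genes. Of the bound members, they held 9 of 12 in HPL-1 intestine (75.0%), 10 of 13 in HPL-2 intestine (76.9%) and 5 of 5 in hypodermis. For all bound genes the shares were 71.5%, 88.6% and 87.9%. In the middle parts, HPL-2 in intestine lay over 3 of 31 members (9.68%), against 1.84% of all genes there, and these were grd-1, grl-25 and ptc-1. HPL-1 lay over 3 of these 31 as well, namely wrt-1, qua-1 and ptr-14, against 3.65% of all genes there. At an FDR of 0.01 or below, where shares of all genes fall as well, ptc-1, touched only at its edge, was lost from HPL-2 intestine. This left grd-1 and grl-25. At the same limit wrt-1 and ptr-14 were lost from HPL-1 intestine, which left only qua-1. The share of all middle-part genes at this limit is not given here, so the middle-part shares are compared only in the full lists. HPL-2 in hypodermis lay over 0 of 31, against 1.90%.

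Comparing HPL-2 between tissues, 4 of the 13 members bound in intestine (30.8%) were also bound in hypodermis, and 4 of the 5 bound in hypodermis (80.0%) were also bound in intestine. Over all protein-coding genes these shares were 35.6% and 36.8%. At an FDR of 0.01 or below the overlap was 1 member, ptr-12, which is 10.0% of 10 intestine and 33.3% of 3 hypodermis members, against 32.1% and 36.4% over all genes. The tissues have separate GFP::Dam controls. In the full lists the 4 members were grd-2, grd-11, ptr-12 and ptr-23, and grd-2 was the only one in which the peaks of the 2 tissues overlapped.

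The 64 members without any peak included 6 wrt, 11 grd, 27 grl and 19 ptr genes and hog-1. Within 1 kb of a peak in some list lay wrt-10, grd-10, grd-5, ptr-1 and ptr-4. For ptr-4 (X, 6060758 to 6065986) both an HPL-1 and an HPL-2 intestine peak lay beyond the same end, at 441 and 325 bp. For grd-5 (V, 8619032 to 8619870) and ptr-1 (V, 9177949 to 9181719) an HPL-2 intestine peak lay at 222 and 307 bp, each with an FDR of 0.0362. With 1 kb added on either side of each gene, 14 members (16.5%) were reached by HPL-1 in intestine, against 6.93% of all genes. HPL-2 in intestine then reached 18 members (21.2%, against 8.31%) and HPL-2 in hypodermis 5 (5.88%, against 8.10%). Without strand in the annotation, such peaks could not be assigned to a promoter or to a downstream region. Median distances of members not bound in a list were 25.4 kb for HPL-1 intestine, 33.0 kb for HPL-2 intestine and 60.1 kb for HPL-2 hypodermis, against 32.2, 37.0 and 42.0 kb for all unbound protein-coding genes. In hypodermis 10 of 80 unbound members (12.5%) had a peak within 10 kb, against 19.0% of all unbound genes.

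**Figure D5:**
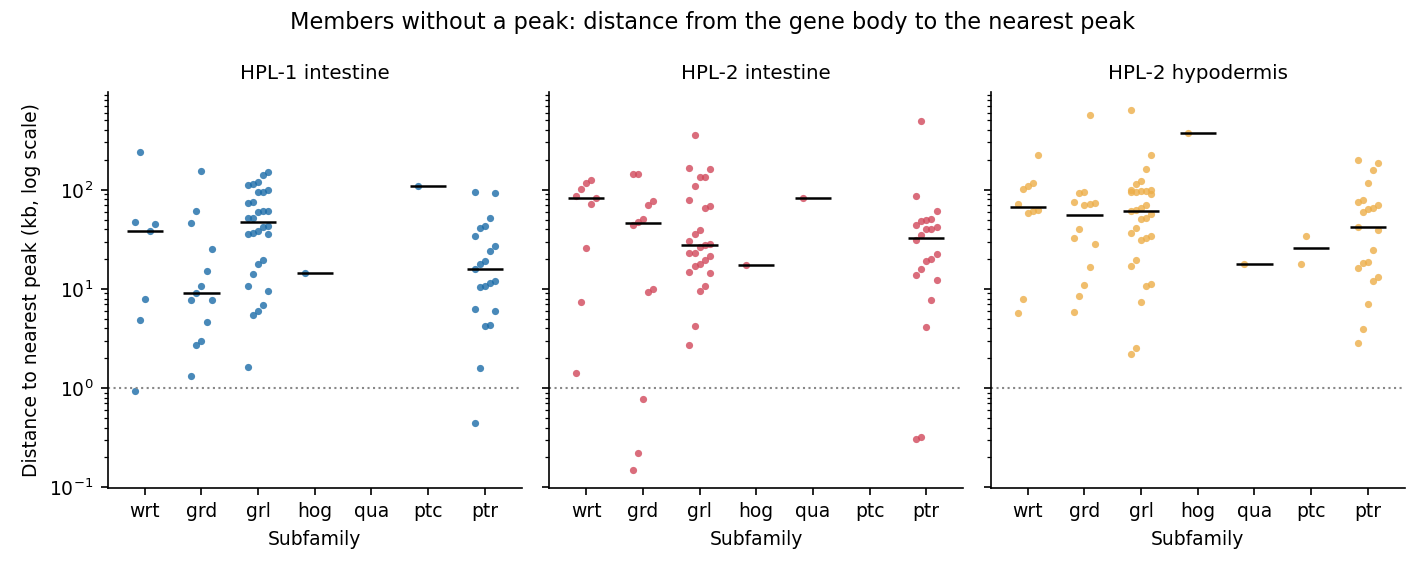
Distance from the gene body to the nearest peak (kb, logarithmic vertical axis) for every member not bound in a list, by subfamily, with 1 panel per list, black lines at subfamily medians and a dotted line at 1 kb. In HPL-2 hypodermis 0 of 80 unbound members lie under the dotted line, against 2.32% of all unbound protein-coding genes, and in HPL-2 intestine 5 of 72 (6.94%) do, against 2.34%.

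Other genes linked to hedgehog signalling or to sterol-sensing proteins were taken from a list of 19, all found in the annotation. HPL-1 in intestine lay over 3 of the 19, HPL-2 in intestine over 2 and HPL-2 in hypodermis over 2, shares of 15.8%, 10.5% and 10.5% for genes with a median body of 5839 bp, against 4.84%, 6.11% and 5.92% of all genes. All bound genes of the list were over 5 kb, where 3, 2 and 2 of 12 were bound (25.0%, 16.7% and 16.7%), against 11.1%, 15.9% and 13.3% of all genes of that length. This class has no upper limit, so length is matched only in part. The bound genes were kin-1 (38.4 kb), tra-1 (24.3 kb), lrp-1 (20.0 kb), ncr-2 (7.46 kb) and rib-1 (5.05 kb). Of these 19 genes, tra-1 (chromosome III, 11170890 to 11195201) had the highest ranking hypodermis peak. It is the worm homologue of the GLI transcription factors and a master regulator of sex determination. It had 2 HPL-2 hypodermis peaks, the higher of score 2.41 at rank 107, and none in intestine. HPL-1 in intestine lay over lrp-1, which encodes a megalin-like receptor needed for molting, with 3 peaks and a top score of 1.02 at rank 111. Both intestine lists reached the NPC1 homologue gene ncr-2 and the heparan sulfate synthesis gene rib-1, at ranks from 615 to 1301. At rib-1, both peaks (11583230 to 11584784 for HPL-1, 11583421 to 11584434 for HPL-2) ran past the gene end at 11583841. They lay mostly outside the gene, so both rib-1 calls rest on its edge. The hypodermis list also had a peak in kin-1, the protein kinase A catalytic subunit gene, at rank 607. The sterol-sensing relatives che-14, daf-6, ptd-2, ncr-1 and scp-1, the gene hmgr-1 and the acyltransferase genes hhat-1 and hhat-2 had no peak in any list.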

How the data were processed

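DamID-seq peak lists of L4 larvae were analysed. Per the submitters' processing notes, the tools were R 3.4.3, SAMtools 1.9 and Bowtie2 2.3.4, on WBcel235/ce11. The deposited file names state an average profile against Dam and an FDR threshold of 0.05, so replicates were combined before deposit. How many libraries entered each average is not stated. Neither the peak caller nor library depths could be learned from the labels or lists. The authors' deposited score has no stated scale and served to rank peaks within a list. Peak edges follow GATC sites, and sites with strong GFP::Dam methylation are harder to call.

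Samples were grouped by title; no label tells whether replicates are separate cultures. Peaks were intersected with gene bodies of the RefSeq WBcel235 table, which holds no strand or exons, in Python 3.11.15 with pandas 2.3.3. The overlap code was tested on simulated intervals. Background shares are over all protein-coding genes of the 6 chromosomes, members included. Members, gene lists and alternatives were chosen with earlier results of these data known. Every bound member is named, as are members within 1 kb of a peak. Planned GATC counts in promoters were not run, and no sequences were used here. The 6 alternatives were an FDR of 0.01 or below, 1 kb flanks, 100 bp of overlap, peak midpoints, lists of equal size, and a peak counted for 1 gene only.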

Additional observations from a re-analysis of the deposited data

How the results depend on the processing

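The number of bound members moved by more than 1.5 times under 1 of the 6 alternatives. With an FDR of 0.01 or below, HPL-1 intestine held 7 members, against 12 in the full list, and HPL-2 hypodermis held 3, against 5; the number of peaks entered falls by construction, and shares of all genes fell as well. HPL-2 intestine held 10 members, against 13. Under the other 5 alternatives the counts ran from 9 to 14 in HPL-1 intestine, from 11 to 18 in HPL-2 intestine and from 4 to 5 in HPL-2 hypodermis. The members' share was above that of all genes in both intestine lists under each of the 6 alternatives. Lists of equal size held 1346 peaks, the whole HPL-1 list, so that alternative repeats the main count for HPL-1. With a peak counted for 1 gene only, members competed only with members, whereas all genes competed for the share of all genes. The shares under that alternative thus follow unlike rules. In HPL-2 hypodermis the members' share was below under 2 alternatives, an FDR of 0.01 or below (3.53%, against 3.79%) and 1 kb flanks (5.88%, against 8.10%). Under the other 4 it was near the share of all genes or slightly above. These were 5.88% against 5.71% (100 bp of overlap) and 4.71% against 4.68% (midpoints). Lists of equal size gave 5.88% against 5.24%, and a peak counted for 1 gene only 5.88% against 5.13%. The 1 kb flanks added wrt-10 and ptr-4 in HPL-1 intestine and grd-13, grd-10, grd-5, ptr-1 and ptr-4 in HPL-2 intestine. Calls that rest on a gene edge and were lost with peak midpoints were those of grd-13, ptr-16 and wrt-2 (HPL-1 intestine), ptr-23 and ptc-1 (HPL-2 intestine) and grd-11 (HPL-2 hypodermis). Of 126 counts by subfamily, list and alternative, 10 moved by more than 1.5 times. With an FDR of 0.01 or below, HPL-1 intestine changed to 0 grl and 1 ptr, HPL-2 intestine to 0 wrt and 1 ptc, and HPL-2 hypodermis to 1 grd. With 1 kb flanks, HPL-2 intestine changed to 7 grd and 4 ptr. With peak midpoints, HPL-2 intestine changed to 1 ptc and 1 ptr and HPL-2 hypodermis to 1 grd. No paired analysis was possible because each group has 1 averaged list and no values per replicate, which also prevents leaving out a replicate.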

Other observations

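Annotated pseudogenes with the name of a member were not counted as members. There are 3 of them, ptc-2, grl-32 and grd-17, and ptc-2 (chromosome II, 6083473 to 6085924) carried 1 HPL-1 intestine peak and no HPL-2 peak in either tissue. A peak of each list lay 1954 bp from grd-17.

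For comparison with other large families, HPL-1 in intestine lay over 14.1% of the hedgehog-related and patched-related genes, beside 9.62% of 156 numbered cuticle collagen genes and 11.7% of 239 C-type lectin genes. HPL-2 in intestine lay over 15.3% of the members, beside 46.2% of the collagen and 8.37% of the lectin genes. HPL-2 in hypodermis lay over 5.88% of the members, beside 5.13% of the collagen and 14.6% of the lectin genes. The median gene body was 2726 bp for the members, 1220 bp for the collagen and 1786 bp for the lectin genes. For bodies under 2 kb, HPL-1 in intestine lay over 8.33% of members and 9.02% of collagen genes. In the same length class HPL-2 in intestine lay over 8.33% of members and 43.6% of collagen genes. HPL-2 in hypodermis lay there over 0 members and 3.01% of collagen genes. Lectin genes were not compared by length. No difference between these families was tested.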
